A study of Mus musculus with 31 samples.

Results

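Thymic tumors from mice lacking the kinase NDR1 were compared with those from wild-type mice, which together make up 12 of the 31 arrays of the series. The members were chosen by sample title: 7 arrays titled as NDR1 KO tumor cells and 5 titled as NDR1 WT tumor cells. All mice were C57BL/6 and, in both groups, had received N-ethyl-N-nitrosourea (ENU), an alkylating mutagen that causes thymic lymphoma, at 100 mg/kg. The genotype label was NDR1-/- for the KO group and NDR1+/+ for the WT group. Per the design text, tissue was taken when a tumor developed, or at the latest 9 months after ENU, and was frozen. The KO group held 6 females and 1 male, and the WT group 5 females. The fitted differences and slopes below also drew on 7 heterozygous (NDR1+/-) tumors of the same strain and treatment, 6 from females and 1 from a male. Levels were set beside those of 12 thymi of untreated mice. These were 4 WT, 4 heterozygous and 4 KO thymi, with 2 from females and 2 from males in each genotype. No label gives the animals' age, the part of the gene that was disrupted or whether each array came from a separate mouse, so the p-values measure the spread between arrays. The titles name tumor cells whereas the source labels name whole thymus, and each sample was a bulk RNA extract, in which fewer cells of a type and less RNA per cell cannot be told apart.

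NDR1 is a serine/threonine kinase encoded by Stk38, and NDR2, encoded by Stk38l, is its close relative. NDR kinases are switched on by MOB1 proteins and by kinases of the MST family, and belong to the same signalling network as the LATS kinases of the Hippo pathway. NDR1 has been described as a tumor suppressor in the T cell lineage, where it promotes apoptosis. Thymocytes pass from an early stage without CD4 or CD8, through a stage with both, to mature T cells that leave the thymus, and the normal thymus holds few B cells. A gene that differs between bulk tumors can therefore differ because the tumor cells changed or because other cells were present in other proportions.

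RNA was measured on Affymetrix whole-genome mouse arrays, and levels below are log2(intensity + 1), so that a difference of 1 is a doubling of (intensity + 1). The median intensity was 20.0 on each array. Of 18192 genes on the array, 14017 passed a filter on low signal and were compared. The T cell receptor complex genes marked every tumor as holding T lineage RNA: the mean over the 13 measured ranged from 10.57 to 11.78 over the 12 tumors. Cd3e, a chain of that complex, ranged from 11.29 to 12.90. The mean of 10 thymic epithelium genes was 4.68 to 6.08 over the tumors and 5.29 to 8.44 over the 12 thymi. Foxn1, the defining transcription factor of that epithelium, was near the lowest signal in tumors (3.36 to 3.86) and also in KO and WT thymi (means 3.62 and 3.63). The Y-linked genes Eif2s3y, Kdm5d and Uty were at 11.15, 9.16 and 8.04 in the tumor labelled male and at or below 4.02 in the other 11. Xist, the RNA of the inactive X chromosome, was lower in that tumor, at 7.75, than in the other 11 (8.97 to 14.38), but above the male thymi (3.65 to 4.60). Precision is limited by how many arrays each group has.

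Stk38, the targeted gene, was read first. Its level was 9.22, 8.73, 12.84, 12.77, 9.52, 13.08 and 11.47 in tumors labelled KO 01 to 07. In tumors labelled WT 01 to 05 it was 11.42, 12.42, 11.38, 12.47 and 13.04. KO tumors 01, 02 and 05 lay below every WT tumor, whereas KO tumors 03, 04 and 06 lay within or above the WT range and KO 07 at its lower end. The KO mean was 11.09 ± 1.89 (SD, n = 7) and the WT mean 12.15 ± 0.724 (n = 5), a difference of -1.06 (2-sided exact permutation p = 0.259; 0.345 adjusted over the 4 single measures tested here). Other Stk38 probe sets differed by -0.22 and by +0.13. In untreated thymi the main probe set averaged 10.92 in KO and 11.86 in WT, so KO thymi also kept much of its signal. The array signal of Stk38 therefore does not bear out the label in part of the KO group. However, a probe set outside the disrupted part checks no label. KO and WT below mean tumors so labelled. In a fit with sex as a covariate the Stk38 difference was -0.81, and with the B cell measure described next added it was -1.68. Stk38l differed by -0.12 (SE 0.45) and Bcl2l11, the gene of the apoptosis inducer BIM, by -0.43 (SE 0.50). Other probe sets differed by +0.21 and +0.10 for Stk38l, and by -0.09, -0.77, +0.50 and +0.14 for Bcl2l11. The adjusted p in limma was 0.973 for Stk38l and 0.901 for Bcl2l11.

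B cell RNA varied widely among the KO tumors. The mean of 15 measured B cell genes, of 17 written in the list, was 5.20, 5.89, 9.45, 11.94, 6.28, 12.23 and 6.34 in KO tumors 01 to 07. It was 7.14, 5.73, 4.69, 5.06 and 6.53 in WT tumors 01 to 05, and between 4.96 and 6.03 in all 12 untreated thymi. KO tumors 04 and 06 stood far above every WT tumor and every thymus, KO 03 was also above both ranges, and the other 4 KO tumors fell within the WT range. Cd79a, part of the B cell receptor, was also highest in KO 04, 06 and 03, at 13.87, 13.49 and 10.31, against 4.39 to 8.60 over the WT tumors. Ms4a1, which encodes CD20, was at 12.90 in KO 04 and 13.29 in KO 06, against 4.30 to 7.90 in WT. Ebf1, a transcription factor that sets B cell identity, was at 10.14 in KO 04, 11.35 in KO 06 and 8.55 in KO 03, against 3.79 to 5.72 in WT. Over 7 KO tumors the list averaged 8.19 ± 2.98 (SD), over 5 WT tumors 5.83 ± 1.02, a difference of 2.36 (2-sided exact permutation p = 0.133; 0.298 adjusted over 4 measures). Without KO tumors 04 and 06 the difference was 0.80.

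A measure of RNA integrity also varied. Control probe sets for actin and Gapdh read the 3' and the 5' part of the transcript, and the log2 ratio of the former to the latter is higher in degraded RNA. It ranged from 0.18 in KO 05 to 3.17 in KO 07, with a KO median of 1.07. In WT tumors 01 to 05 it was 0.97, 1.52, 0.25, 2.01 and 0.98. In the 12 thymi it stayed between 0.26 and 0.50. Both tumor groups held arrays with a high ratio, and their ranges overlapped: the means were 1.41 ± 1.02 (SD, n = 7) and 1.15 ± 0.662 (n = 5), differing by 0.26 (2-sided exact permutation p = 0.627). Without KO tumor 07 that difference was -0.03.

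**Figure D1:**
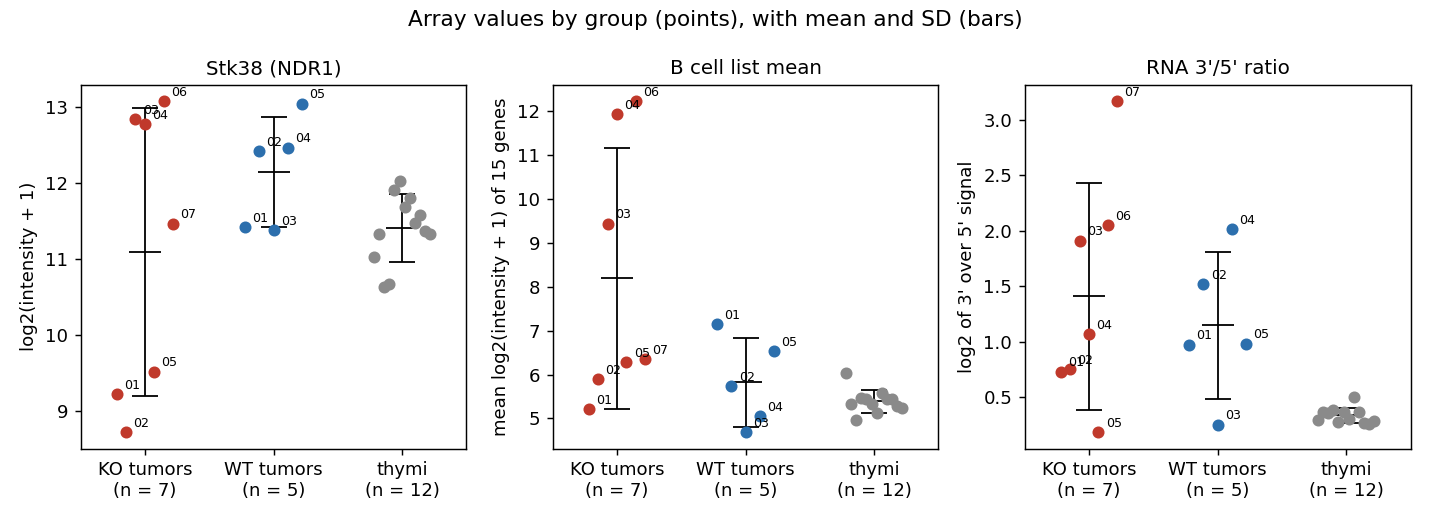
Stk38 level, B cell list mean and 3'/5' ratio (y axes, log2 units) in 7 KO tumors, 5 WT tumors and 12 thymi. Points are arrays, numbered for tumors, and bars are mean and SD. KO tumors 03, 04 and 06 have a Stk38 level of 12.77 to 13.08 and B cell list means of 9.45 to 12.23.

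KO tumors 04 and 06 differed from the other 10 across many gene groups at once. Their mature T cell list means were 12.62 and 12.17, against 6.84 to 9.77 in the other KO and WT tumors. Klf2, a transcription factor of T cells that leave the thymus, was at 13.57 and 13.58 in them, and S1pr1, the receptor used to leave, at 10.30 and 8.80 against at most 4.99 elsewhere. MHC class II genes, expressed by antigen-presenting cells including B cells, averaged 13.10 and 13.06 there, against 7.07 to 10.57. Neutrophil genes averaged 8.38 and 7.24, against 4.09 to 5.45, with S100a8 at 13.25 and 12.51. NK and cytotoxic genes averaged 9.54 and 9.03, against 5.18 to 6.66. Gzma of that list was instead lower in KO 04 and KO 06, at 8.23 and 9.42, against 10.32 to 13.95 in the others. The double-positive thymocyte list was lower, averaging 8.24 and 9.15 in KO 04 and KO 06, against 10.58 to 12.01 elsewhere. Rag1, which cuts antigen receptor genes, was at 4.57 and 8.36 there and at 10.64 to 14.37 in the others. Not all members of that list were low there: Cd4 was at 10.61 and 9.52, against 6.40 to 10.35 in the others. Cd8a (10.64 and 10.85) and Cd8b1 (10.41 and 9.94) lay within the range of the other tumors. Mitosis genes averaged 8.84 and 7.57, against 10.41 to 11.56. Notch3, a Notch receptor often active in T cell leukemia, was at 4.10 and 5.52 there, against 10.67 to 12.45. The T cell receptor complex list mean, at 11.60 and 10.57 in these tumors, did not set them apart together. Much of this profile was also seen in heterozygous tumors 01 and 03, so it was not confined to KO tumors. Their B cell list means were 11.97 and 10.58, mature T cell means 12.53 and 12.23, and NK and cytotoxic means 10.88 and 11.13. Mitosis means there were 9.02 and 9.35, but double-positive thymocyte means, at 11.13 and 10.87, lay within the range of the other 10. The share of these gene levels that came from cells other than tumor cells was not tested.

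**Figure D2:**
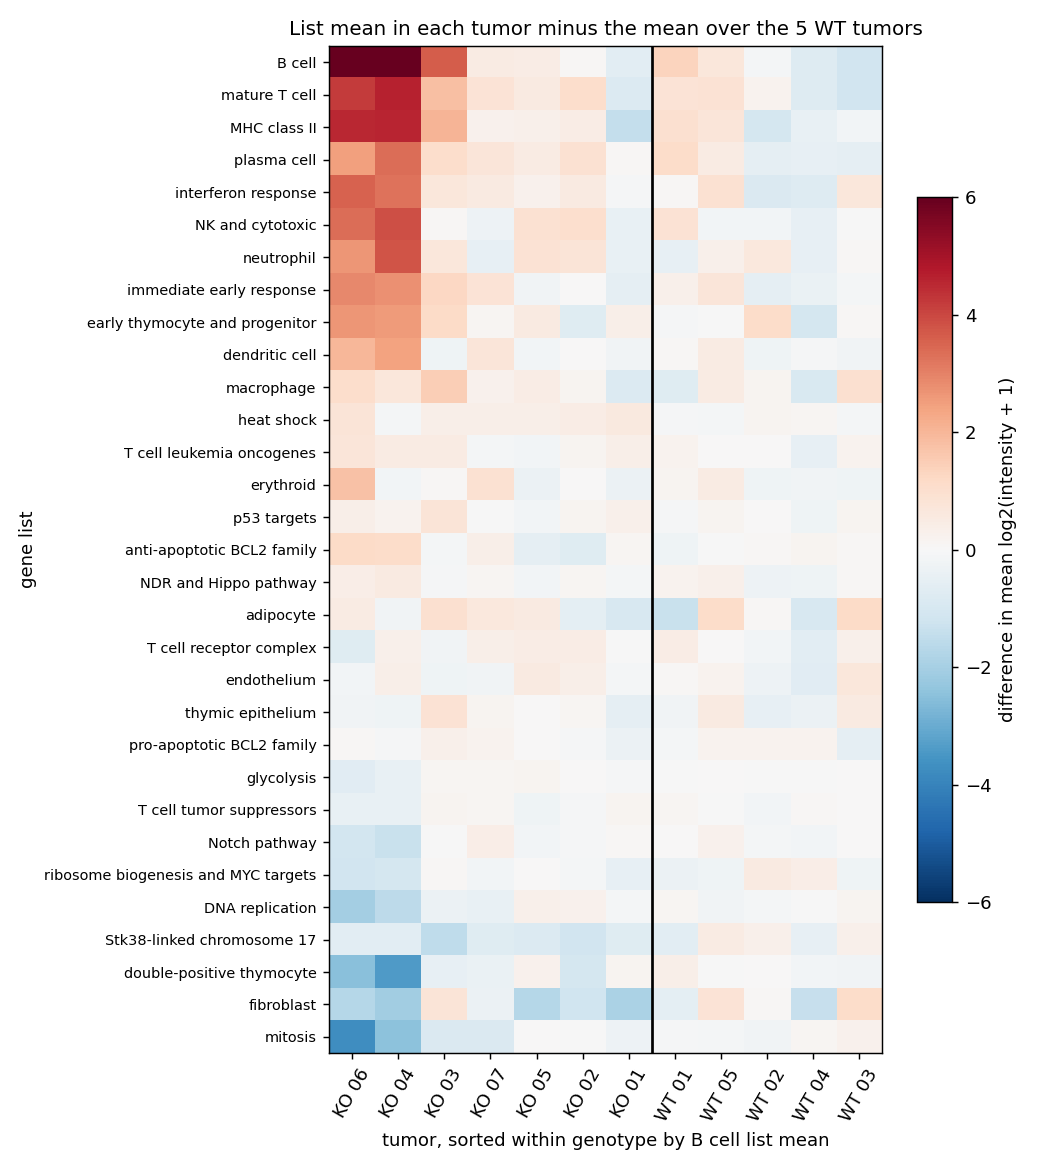
Mean of each gene list in each tumor minus its mean over the 5 WT tumors (colour, log2 units), with tumors in columns sorted by B cell list mean within genotype. The B cell, mature T cell and MHC class II rows are darkest red, and the mitosis and double-positive thymocyte rows blue, in KO 06 and KO 04.

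KO tumors lay farther from each other, on average, than WT tumors did, but the difference did not pass the permutation test. The distance between a pair of tumors was taken as the median absolute log2 difference over the 14017 genes. It averaged 0.604 over 21 KO pairs (0.319 to 0.875) and 0.448 over 10 WT pairs (0.323 to 0.584). The difference of 0.156 had a 2-sided exact permutation p of 0.149 (0.298 adjusted over 4 measures). KO 04 and KO 06 were close to each other at 0.33, and the farthest KO pairs involved KO 03. Without KO tumor 03 the difference was 0.086, and without KO tumors 03, 04 and 06, the KO tumors farthest on average from the other tumors, it was -0.01. The median SD of a gene was 0.655 over KO tumors and 0.447 over WT tumors, against 0.187 in KO thymi and 0.173 in WT thymi (n = 4 each). Heterozygous tumors were spread nearly as widely as KO tumors, at a mean distance of 0.559 over 21 pairs and a median SD of 0.603. The SD over KO tumors exceeded that over WT tumors for 71.85% of genes. That share was 64.89% without KO tumors 04 and 06 and 45.92% without KO tumors 03, 04 and 06.

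Over the 12 tumors, the first principal component held 38.33% of the variance and the second 23.89%. KO 04 and KO 06 scored 130.1 and 141.8 on the first, whereas the WT tumors scored -49.0 to -14.4. KO 03 had the highest score on the second, at 112.7, followed by WT 04 at 64.9. The WT tumors and the other 4 KO tumors mixed on both components.

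**Figure D3:**
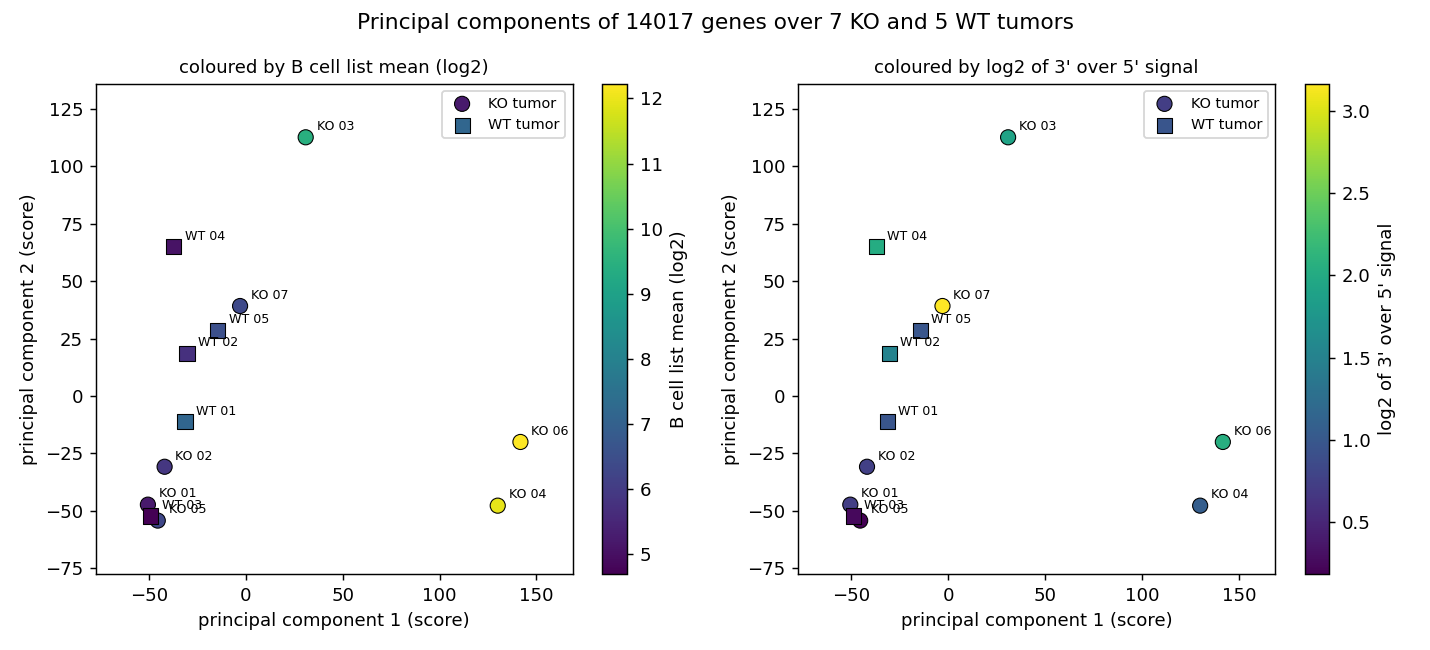
Scores of 7 KO tumors (circles) and 5 WT tumors (squares) on the first and second principal components of 14017 genes, coloured by B cell list mean (left) and by 3'/5' ratio (right). KO 04 and KO 06 lie apart at first-component scores of 130.1 and 141.8, and KO 03 lies at 112.7 on the second.

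The genes of largest SD show what the spread consisted of. Of the 10 most variable over KO tumors, Cd79a, Bank1 and Cr2 are B cell genes and H2-Ob belongs to MHC class II. Cr2, the complement receptor of B cells, was at 9.49, 11.27 and 11.99 in KO 03, 04 and 06, and at 3.51 to 4.24 in the other KO tumors. Rasgrp3, Srpk3 and Trim7 were high in the same 3 KO tumors: Rasgrp3 was at 9.14 to 12.21 in them and 3.46 to 4.89 elsewhere in KO. Bpifa2, a salivary gland secretory gene, was at 11.40 and 11.41 in KO 04 and KO 06 and at 3.04 to 3.38 in the other 10 tumors. Gfra1 and Syt13 went the opposite way, and Gfra1, a receptor for GDNF, was at 3.30 in KO 04, 4.75 in KO 06 and 11.03 to 12.98 elsewhere. The 10 most variable over WT tumors included 5 genes of pancreatic enzymes: Cela2a, Cela3b, Cpa1, Pnliprp1 and 2210010C04Rik. Cpa1, which encodes carboxypeptidase A1, was at 12.28 in WT 05 and at 3.07 to 3.64 in the other 11 tumors. Pax7, a transcription factor of muscle stem cells, was at 10.86 in WT 03, 9.56 in WT 05 and 8.38 in KO 01, and at 2.98 to 3.80 in the other 9. Fgf13 was at 3.30 in WT 01, 4.02 in WT 04 and 3.44 in KO 03, and at 8.55 to 11.50 in the other 9. Pax7 and Fgf13 were thus near the lowest signal in some tumors and far above it in others, in both genotypes.

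Across all genes, no gene separated KO from WT tumors at the adjusted threshold. A model with genotype and sex was fitted in limma to all 19 tumors of the series, heterozygous tumors included, which share the estimate of the spread. Of 14017 genes, 0 passed adjusted p under 0.05 (a background share of 0%), and the smallest adjusted p was 0.522. At unadjusted p under 0.05 there were 473 genes, or 3.37% of those tested, 301 (2.15%) with KO above WT and 172 (1.23%) with KO below. The count moved with single tumors: it was 229 without KO 06, 234 without KO 04, 291 without WT 04, 965 without KO 05 and 975 without KO 01. A difference of over 1 on the log2 scale was fitted for 1433 genes (10.2%).

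Many of these 473 genes followed B cell content. Over the 19 tumors, 2924 of 14017 genes (20.9%) had a slope on the B cell list mean at adjusted p under 0.05 in limma, 1577 (11.3%) positive and 1347 (9.61%) negative. Among the 473 genes, 236 (49.9%) had such a slope. All 173 positive ones were higher in KO and all 63 negative ones lower. Because the B cell mean was higher in KO, genes picked for a small p that have such a slope tend to split this way. The split is therefore no support. With the B cell list mean as a covariate, 148 genes (1.06%) were at unadjusted p under 0.05, 89 (0.635%) higher and 59 (0.421%) lower, and 70 of them were among the 473. The median size of the 473 differences went from 1.01 to 0.518, with no sign changed. Over all 14017 genes the median size went from 0.257 to 0.174. The 473 genes were picked for small p in these same tumors, so kept signs are no support. Their sizes would tend to fall in other fits too, so the fall is not read as the share due to B cell content. Without KO tumors 04 and 06 the count was also 148 (1.06%), again 89 (0.635%) higher and 59 (0.421%) lower, with 85 of the 473. The median size was then 0.698 for the 473 and 0.190 for all genes. In neither case did a gene pass the adjusted threshold. The slope count itself was 1423 without KO tumors 04 and 06 and heterozygous tumors 01 and 03, the 4 tumors with the highest B cell means.

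Slopes on the 3'/5' ratio passed the threshold for 3210 of all genes (22.9%) and for 22 of the 473 (4.65%). The 473 came from a fit without the ratio. Genes that vary with the ratio have a wider spread there and reach a small p less easily. The lower share among the 473 therefore does not show that the ratio bears little on the comparison. With the ratio as a covariate, 754 genes (5.38%) were at unadjusted p under 0.05, 454 (3.24%) higher and 300 (2.14%) lower, and 0 passed in limma, at a smallest adjusted p of 0.0699. With both covariates the count was 287 (2.05%), 179 (1.28%) higher and 108 (0.77%) lower, and 0 passed in limma. Per gene over the 12 tumors, a median of 5.40% of the variance lay along genotype, 15.4% along the B cell list mean and 12.1% along the ratio. Each variable was taken alone. Most of the variance lay along genotype for 54 genes (0.385%), along the B cell mean for 2430 (17.34%) and along the ratio for 1399 (9.98%). The level that an unrelated variable reaches with 12 tumors was not computed, so no effect of genotype is read from these values.

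Baiap3, which encodes a Munc13-family protein of vesicle release, had the smallest p of all genes. Its level was 3.97, 3.92, 3.40, 3.81, 3.42, 4.80 and 6.84 in KO tumors 01 to 07 and 6.90, 7.69, 8.64, 7.79 and 9.44 in WT tumors 01 to 05. Every KO tumor was below every WT tumor, but KO 07, the KO tumor with the highest 3'/5' ratio, lay just under WT 01. Baiap3 lies on chromosome 17, as does Stk38, and in untreated thymi its mean was 3.70 in KO and 7.42 in WT. The fitted tumor difference was -3.85 (SE 0.70, adjusted p = 0.522 in limma), and -3.94 with the B cell covariate. Over 28 alternative settings it ranged from -4.56 to -3.03, with adjusted p from 0.032 to 1. It passed in 2 of these settings: without KO tumor 07 (adjusted p = 0.0327 in limma) and with a replicate block (0.0323). Without KO tumor 07 it was the 1 gene to pass of all tested (0.00713%), and 645 genes (4.6%) were at unadjusted p under 0.05, 416 (2.97%) higher and 229 (1.63%) lower. Of the 4 KO tumors whose Stk38 signal was within or above the WT range, KO 03, 04 and 06 had Baiap3 at 3.40 to 4.80 and KO 07 had the highest KO level.

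With Baiap3, 5 of the 10 lower genes of smallest p lie on chromosome 17. Chromosome 17 held 18 of the 172 lower genes (10.5%) and 22 of the 301 higher ones (7.31%), against 4.97% of all genes tested. Eme2, a partner of the DNA repair nuclease MUS81, had a KO range of 4.46 to 6.54 with a median of 5.25, against 5.37, 8.54, 7.18, 7.74 and 9.08 in WT tumors 01 to 05. WT 01 lay among the KO tumors and the other 4 WT tumors lay above all 7. The difference was -2.22 (SE 0.67), while other Eme2 probe sets of low signal differed by -0.02 and -0.31. Anks1, which encodes an adaptor of EPH receptors, ranged from 6.18 to 8.60 in KO (median 6.71) and was 7.65, 10.58, 9.88, 9.66 and 10.24 in WT, a difference of -2.39 (SE 0.70). Again WT 01 was within the KO range. Gfer, a sulfhydryl oxidase of mitochondria, ranged from 7.91 to 8.68 in KO (median 8.15) against 8.35, 9.48, 9.47, 9.63 and 9.69 in WT. It differed by -1.09 (SE 0.31), but its other probe set differed by +0.55, so its direction is uncertain. Vegfa, the vascular growth factor, ranged from 3.62 to 6.94 in KO (median 4.40) against 5.64, 5.98, 6.34, 7.86 and 6.44 in WT. KO 05 lay above all WT tumors but WT 04, and the other 6 KO tumors below all WT tumors. The difference of -1.80 (SE 0.53) was -1.09 with the B cell covariate, and its other probe set differed by -0.14. In limma the adjusted p was 0.874 for Eme2, Anks1, Gfer and Vegfa.

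Genes of other chromosomes among the 10 lower ones were Mpst, Ccn6, Acacb, Myef2 and Crip1. Mpst, an enzyme of sulfur metabolism, ranged from 4.15 to 6.53 in KO (median 4.93) and was 5.51, 8.60, 6.72, 7.63 and 6.44 in WT. KO 02 overlapped the WT tumors and the other 6 KO tumors did not. The difference was -2.16 (SE 0.50), -1.96 with the B cell covariate and -2.14 without KO 04 and 06. Crip1, a small LIM-domain protein, was high in all tumors, at 12.40 to 14.59 in KO and 14.13 to 14.52 in WT, and differed by -1.01 (SE 0.31). Myef2, an RNA-binding repressor, differed by -1.04 (SE 0.31), Acacb, a fatty acid metabolism enzyme, by -0.84 (SE 0.24) and Ccn6, a secreted matrix protein, by -0.71 (SE 0.20). The other Acacb probe set differed by +0.03, and other Myef2 probe sets by -0.77 and -1.50. For Crip1 and Myef2 the difference was -0.58 and -0.66 with the B cell covariate. None of these passed in limma (adjusted p = 0.874 each).

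Of the 10 genes of smallest p that were higher in KO, Hspa1b had the clearest separation. Hspa1b encodes an inducible heat shock protein of the HSP70 family. It was at 9.63, 7.15, 7.52, 6.66, 7.23, 10.77 and 7.07 in KO tumors 01 to 07 and at 4.64, 5.26, 5.56, 6.57 and 5.69 in WT tumors 01 to 05. All KO tumors lay above all WT tumors, by 0.086 at the closest pair, KO 04 and WT 04. The difference was +2.59 (SE 0.68), and +2.78 with the B cell covariate. Its other probe sets differed by +2.26 and +1.81, and Hspa1a, a near-identical neighbour with which probe signal may be shared, by +0.76 (SE 0.34). Hspa1b lies on chromosome 17 as well.

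E330020D12Rik, a gene of unassigned function, had the largest difference of the 10 higher genes, +3.57 (SE 1.03). It ranged from 5.10 to 11.30 in KO, with KO 04 and 06 highest, against 4.40 to 6.09 in WT, and its difference was +1.87 with the B cell covariate. Nudt7, a peroxisomal coenzyme A hydrolase, ranged from 5.73 to 9.07 in KO (median 8.27) against 6.28, 7.31, 4.45, 4.82 and 5.99 in WT. KO 05 alone of the KO tumors fell within the WT range, and the difference was +2.34 (SE 0.70), or +1.46 with the B cell covariate. Tfe3, a transcription factor of lysosome genes, ranged from 5.47 to 8.36 in KO (median 6.95) against 5.41, 4.34, 5.89, 4.59 and 6.22 in WT. Its highest levels were in KO 03, 04 and 06, and the difference of +2.01 (SE 0.58) was +1.19 with the B cell covariate. Pqlc3, a membrane protein of the PQ-loop family, ranged from 7.24 to 9.94 in KO (median 8.63) against 7.40, 6.91, 6.58, 6.47 and 6.36 in WT. All KO tumors but KO 07 were above all WT tumors, and the difference was +1.90 (SE 0.46).

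The other 5 were Dhrs11, a dehydrogenase, at +1.65, Cldn12, a claudin, at +1.29, Tada2b, a subunit of the SAGA acetyltransferase complex, at +0.98, Cptp, a carrier of ceramide-1-phosphate, at +0.97 and Kbtbd4, an adaptor of a ubiquitin ligase, at +0.64. Tada2b, Cptp and Kbtbd4 differed by +0.77, +0.84 and +0.74 with the B cell covariate, close to their values without it. Cldn12 went to +0.69. The adjusted p in limma was 0.874 for all 10 of the higher genes. Over 27 or 28 alternative settings each, none of the 20 genes of smallest p took the other sign. These genes were picked for small p in the same tumors that the settings reuse, so their kept signs are no support.

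**Figure D4:**
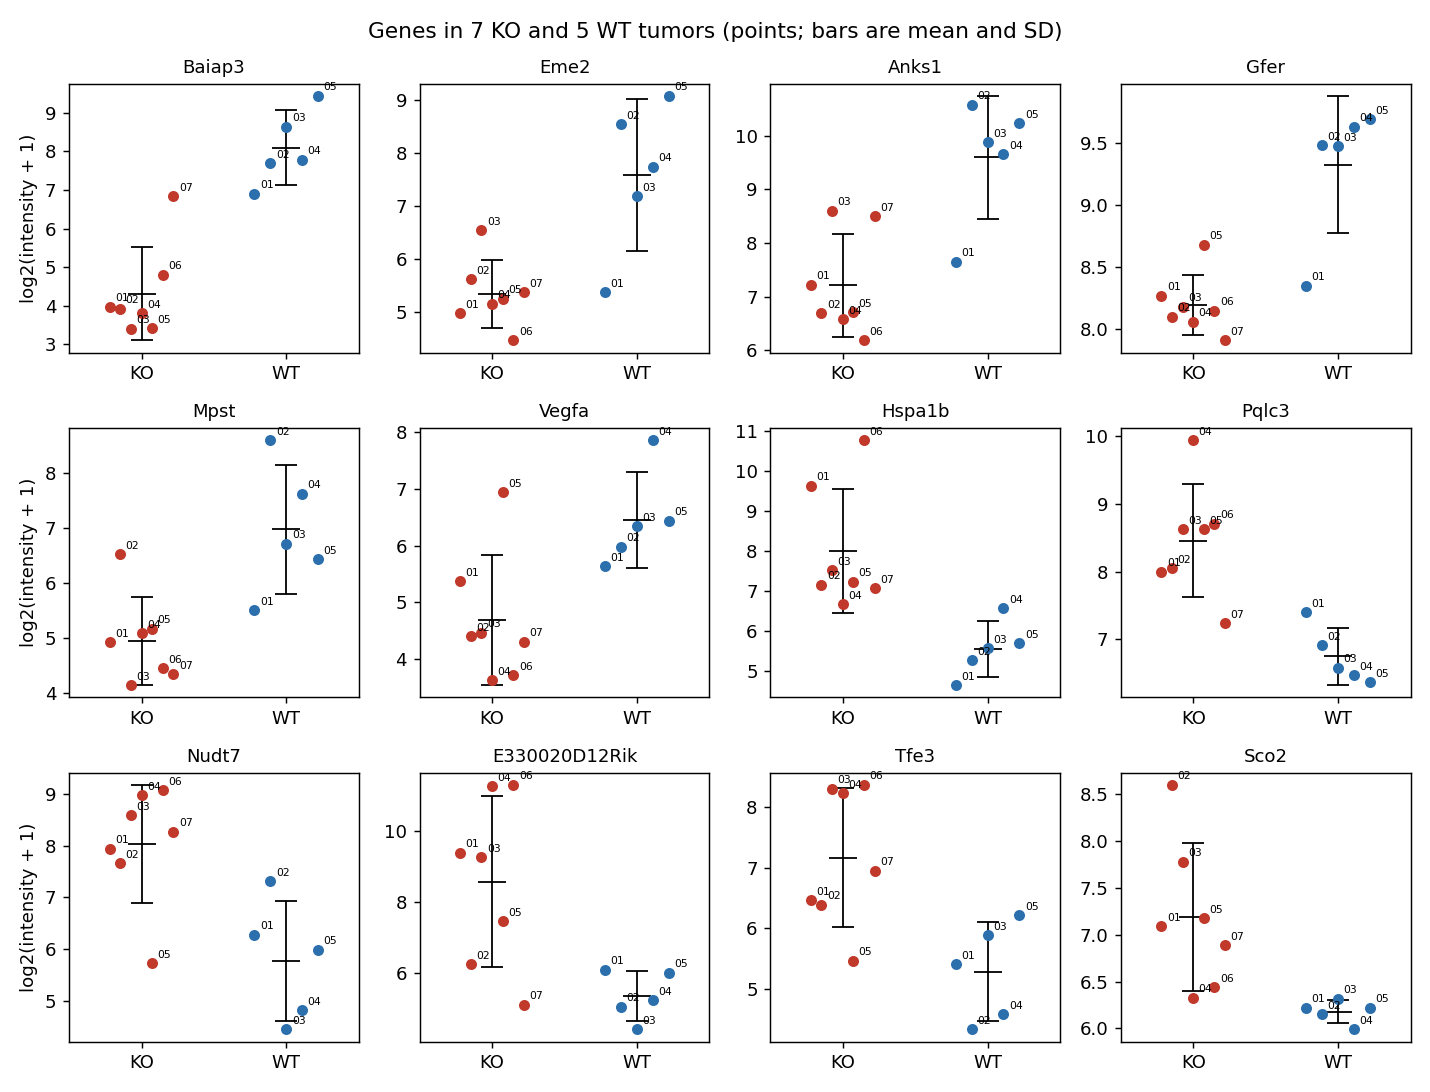
Levels of 12 genes (y axes, log2(intensity + 1), each with its own scale) in 7 KO and 5 WT tumors, with points numbered by tumor and bars for mean and SD. For Baiap3, Hspa1b and Sco2 the groups do not overlap, whereas WT 01 lies among the KO tumors for Eme2, Anks1 and Gfer.

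Levels did not overlap between the groups for 14 of 14017 genes (0.0999%), with KO above WT for 5 (0.0357%) and below for 9 (0.0642%). KO was above WT for Hspa1b, Tmeff1, Sec24a, Sco2 and Tfap2d. Sco2, a copper chaperone of cytochrome c oxidase, was at 6.33 to 8.60 in KO and 5.99 to 6.32 in WT, and differed by +0.88 (SE 0.28). Sec24a, part of the vesicle coat that buds from the endoplasmic reticulum, differed by +0.68 (SE 0.25), and by +0.30 with the B cell covariate. Tmeff1 and Tfap2d stayed near the lowest signal in both groups, between 3.32 and 4.45. KO was below WT for Baiap3, Stil, Arhgap11a, Gm550, Ankrd52, Gm19325, Fam71b, Atad5 and Zgrf1. Stil, needed to duplicate centrioles, was at 6.11 and 7.30 in KO 06 and KO 04 and 9.61 to 9.72 in the other KO tumors, against 9.88 to 11.07 in WT. Its difference of -1.63 (SE 0.77) was -0.32 with the B cell covariate. Leaving a tumor out can only keep or raise this count, so a rise alone shows no dependence on that tumor. It was 69 without WT 01, 57 without KO 01, 56 without WT 03, 54 without KO 03 and 46 without WT 05. It was 45 without WT 02 or without KO 07, 37 without KO 02 and 32 without KO 05. The smallest counts were 24 without WT 04 and 18 without KO 04 or without KO 06.

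The gene lists were then read with and without B cell content taken into account. Each is described by its median difference and its counts beside those of all 14017 genes, whose median difference was 0.014 and which held 2.15% with KO higher and 1.23% with KO lower at unadjusted p under 0.05. In no list did a gene pass the adjusted threshold. All 15 B cell genes were higher in KO, with a median of +3.01, and 3 of them, Cd79b (+3.71), Blk (+3.01) and Spib (+3.11), were at unadjusted p under 0.05. The median was +1.14 without KO tumors 04 and 06, with all 15 still higher. With the B cell covariate, which these same genes form, it was -0.18. Of 8 plasma cell genes, 7 were higher (median +1.38), including Jchain, the joining chain of secreted antibodies, at +3.35 and Mzb1, a chaperone for antibodies, at +3.33. With the covariate Jchain differed by +1.27 and Mzb1 by +0.44. All 9 MHC class II genes were higher (median +1.65), and Cd74, their invariant chain, differed by +1.65, or by -0.09 with the covariate.

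Other lists followed the same tumors. All 10 mature T cell genes were higher (median +2.01), and the median was -0.20 with the covariate. Among them Il7r, the interleukin 7 receptor, differed by +2.99 (SE 1.10) and, with the covariate, by +1.44. All 13 interferon response genes were higher (median +1.55), and with the covariate the median was -0.06. Rtp4 differed by +2.27 (SE 0.82) and Ddx58, an RNA sensor, by +1.05 (SE 0.49). NK and cytotoxic genes had a median of +1.39 and immediate early genes of +1.33, or -0.56 and -0.19 with the covariate. All 15 mitosis genes were lower in KO (median -1.23), and all 15 had a negative slope on the B cell mean at adjusted p under 0.05. The mitotic kinase gene Plk1 differed by -1.49 (SE 0.79), and by -0.30 with the covariate. Top2a, a topoisomerase, was the one mitosis gene at unadjusted p under 0.05, at -1.04 (SE 0.46). All 15 DNA replication genes were lower (median -0.57), and their median was +0.09 with the covariate. Among double-positive thymocyte genes, 9 of 10 were lower (median -0.71). Arpp21, high in thymocytes at this stage, differed by -2.95 (SE 1.33), and by -0.82 with the covariate.

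**Figure D5:**
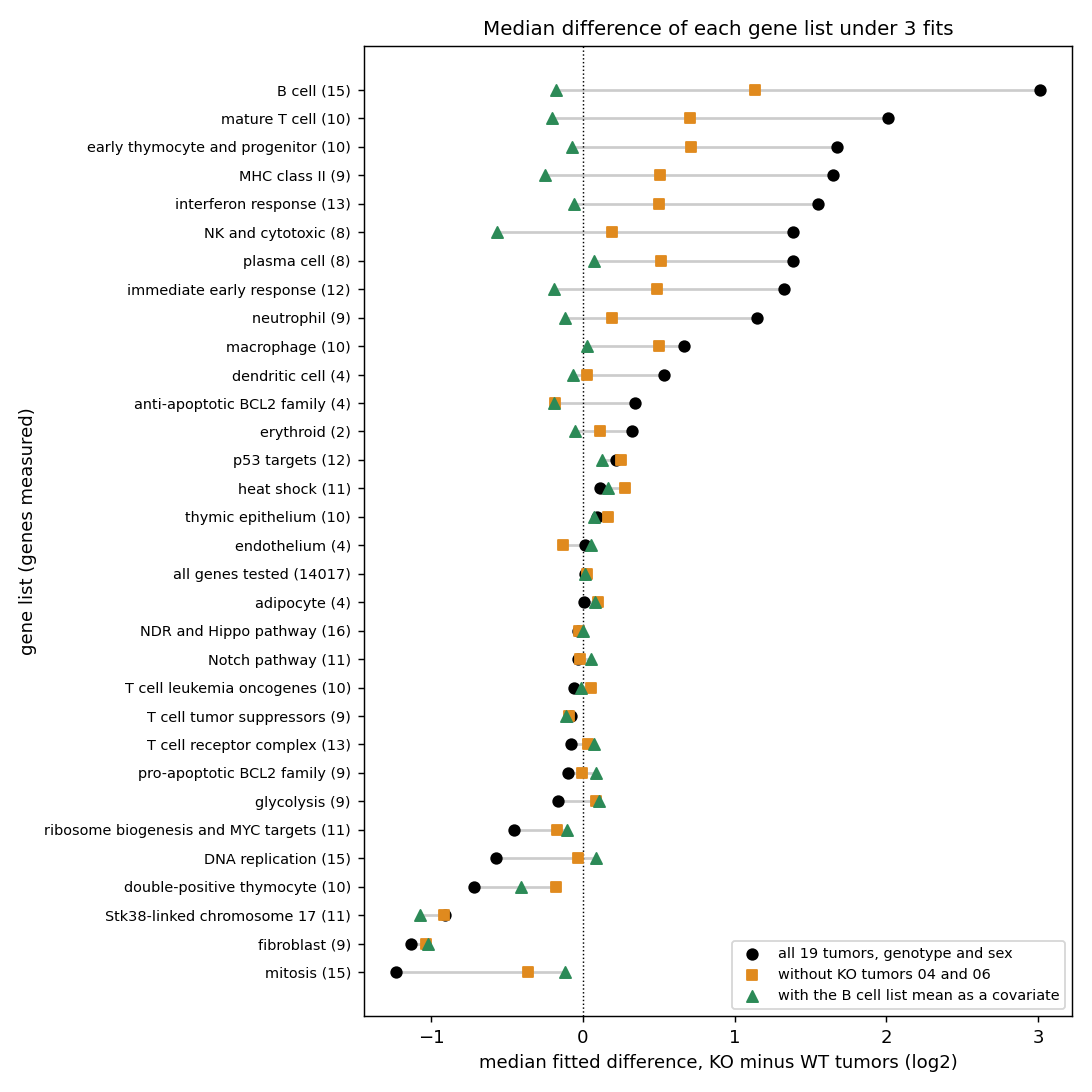
Median fitted difference between KO and WT tumors (x axis, log2) for each gene list (y axis, number of genes measured), in the fit of all 19 tumors (circles), without KO tumors 04 and 06 (squares) and with the B cell list mean as covariate (triangles). The B cell median goes from +3.01 to -0.18 and the mitosis median from -1.23 to -0.12, whereas the fibroblast and chromosome 17 lists stay near -1.

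Promoter sequences are shown for 4 genes of the B cell and interferon lists, the groups that were high together in KO tumors 04 and 06, so that the motifs typical of their regulation can be seen. They are RefSeq windows of assembly GRCm38.p6, from 250 bases before to 50 bases after the start of the gene, written 5′ to 3′ on the gene's strand, with motif letters in capitals. The octamer ATTTGCAT, bound by OCT factors, was searched on both strands, and 2 of 12 B cell list genes with a window held it, against 1.63% of the 11256 tested genes with one. These were Vpreb3, of the surrogate light chain family, at chr10:75948050-75948349 on the plus strand, and Blnk, an adaptor of B cell receptor signalling, at chr19:40994172-40994471 on the minus strand. Blnk was at 12.12 in KO 04, 12.27 in KO 06 and 9.60 in KO 03, against 4.72 to 8.57 in WT. Vpreb3 was at 5.31 and 5.68 in KO 04 and 06 and at 3.24 to 3.63 in the other 10.
Vpreb3: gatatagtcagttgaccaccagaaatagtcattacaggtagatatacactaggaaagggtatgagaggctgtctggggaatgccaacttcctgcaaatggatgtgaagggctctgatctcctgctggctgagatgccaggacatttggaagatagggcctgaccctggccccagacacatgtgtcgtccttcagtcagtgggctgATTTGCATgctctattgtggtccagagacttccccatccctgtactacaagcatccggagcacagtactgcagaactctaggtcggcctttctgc
Blnk: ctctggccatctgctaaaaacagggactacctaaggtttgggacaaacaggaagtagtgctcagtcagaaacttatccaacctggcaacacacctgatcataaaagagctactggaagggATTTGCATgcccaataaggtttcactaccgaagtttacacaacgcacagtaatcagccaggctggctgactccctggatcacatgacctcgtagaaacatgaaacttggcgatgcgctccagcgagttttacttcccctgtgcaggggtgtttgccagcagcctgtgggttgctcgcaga
The interferon response element was searched on both strands as GAAA, any 2 bases and GAAA, and 6 of 10 interferon list genes with a window held it, against 3.57% of all tested genes with one. The RNA-binding antiviral genes Ifit1, at chr19:34640639-34640938, and Ifit3, at chr19:34583279-34583578, both on the plus strand, are shown; their matches lie on the opposite strand, so that the capitals show the reverse complement. Ifit1 was at 9.90 and 9.65 in KO 04 and KO 06 and at 3.30 to 6.11 in the others. Ifit3 was at 11.04 and 10.82 in the same tumors and at 5.33 to 7.93 elsewhere.
Ifit1: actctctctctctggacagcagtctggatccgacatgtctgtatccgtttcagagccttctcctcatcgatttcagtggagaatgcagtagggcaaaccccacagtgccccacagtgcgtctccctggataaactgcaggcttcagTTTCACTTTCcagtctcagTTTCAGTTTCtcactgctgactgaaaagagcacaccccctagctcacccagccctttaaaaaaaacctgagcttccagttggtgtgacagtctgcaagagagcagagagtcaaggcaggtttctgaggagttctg
Ifit3: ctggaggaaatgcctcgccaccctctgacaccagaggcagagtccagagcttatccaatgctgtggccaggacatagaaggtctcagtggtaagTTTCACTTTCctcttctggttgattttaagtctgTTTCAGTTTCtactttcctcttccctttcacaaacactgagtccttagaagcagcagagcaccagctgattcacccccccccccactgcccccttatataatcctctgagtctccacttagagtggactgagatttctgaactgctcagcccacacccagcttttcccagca
The heat shock element, searched on both strands as GAA, any 2 bases, TTC, any 2 bases and GAA, was found in 3 of 9 heat shock genes with a window (Hspd1, Hspe1 and Hsph1), against 0.595% of tested genes. A match is a description of these letters and not evidence of binding.

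A few groups kept their difference when B cell content was taken into account. Of 9 fibroblast genes, 8 were lower in KO, with a median of -1.13, which was -1.02 with the covariate and -1.03 without KO tumors 04 and 06. None was at unadjusted p under 0.05. Col3a1, a fibrillar collagen, ranged from 6.12 to 11.18 in KO (median 8.22) and from 7.82 to 11.97 in WT, a difference of -1.74 (SE 0.97). KO 03 was the KO tumor with most Col3a1 signal, and WT 01, 02 and 04 lay within the KO range. Dcn, a collagen-binding proteoglycan, differed by -1.13 (SE 0.92). The list of 11 genes on chromosome 17 had been chosen for differing between KO and WT in untreated thymi of this series, so its direction in KO is no independent evidence. Here 7 were lower and 4 higher (median -0.91), and 5 were lower at unadjusted p under 0.05: Baiap3, Eme2, Anks1, Gfer and Zfp40, a zinc-finger gene, at -2.14 (SE 0.75). With the covariate the median was -1.08, with 5 lower again at that p.

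Of 11 heat shock genes, 7 were higher, with a median of +0.11, and with the B cell covariate 9 were higher, with a median of +0.17. Their list mean, which includes Hspa1b, was 10.24 ± 0.28 (SD) in KO tumors and 9.84 ± 0.14 in WT tumors. Hspa1b and Hspa1a were the members at unadjusted p under 0.05, while Dnajb1, an HSP40 co-chaperone, differed by -0.07 and Hsph1 by +0.51. Of 16 NDR and Hippo pathway genes, 7 were higher and 9 lower, with a median of -0.03. Mob1a, an NDR activator, differed by +0.66 (SE 0.57) and Mob1b by -0.06 (SE 0.24). Stk24, a kinase of the MST family, was the member at unadjusted p under 0.05, at +0.82 (SE 0.32), or +0.48 with the B cell covariate. Of 9 pro-apoptotic BCL2 family genes, 4 were higher and 5 lower. Bik was at unadjusted p under 0.05, at -1.23 (SE 0.57), whereas Bbc3, which encodes PUMA, differed by +0.73 (SE 0.45). Of 4 anti-apoptotic members, 3 were higher: Bcl2 differed by +0.23 (SE 0.77), or by -0.59 with the covariate, with KO 04 and KO 06 the highest tumors. Notch pathway genes had a median of -0.03, and p53 target genes one of +0.22, with 10 of 12 higher. Maml1, a Notch coactivator, was the Notch member at unadjusted p under 0.05, at +0.63 (SE 0.22). Myc differed by -0.77 (SE 0.44), or by -0.08 with the covariate.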

How the data were processed

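Values were normalized probe set intensities on a linear scale, deposited by the authors as 1 value per probe set and array and made with GCRMA (background correction, normalization and summary), per the submitters' processing notes; no version is named for it. Of 45101 probe sets, 34944 named a single gene in the supplied annotation. Intensities were turned to log2(value + 1), which understates differences of dim genes. Each gene was read from its probe set of highest mean, and genes above the 25th percentile of those means (3.61) were kept, leaving 14017 of 18192.

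KO and WT tumors were compared with limma 3.58.1 in R 4.3.3 (genotype and sex, 19 tumors, Benjamini-Hochberg adjustment over all genes tested), and 4 single measures by 2-sided exact permutation over 792 arrangements, whose smallest possible p is 0.00126. Slopes on the B cell list mean or on the 3'/5' ratio came from the same tumors, each added to the model with genotype and sex. Genes were named by rule: Stk38, Stk38l, Bcl2l11 and Baiap3, the 10 smallest p per direction, up to 5 per direction with the widest gap between groups, the first 4 members of each list and members at unadjusted p under 0.05, and the 10 largest SDs per genotype. The members, lists and rules were chosen with earlier results of these data known. Alternatives covered covariates, filters, normalization, probe set choice and each tumor left out. Heterozygous tumors and thymi entered as stated and were not described for their own sake.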

Additional observations from a re-analysis of the deposited data

Results flagged for a closer look

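In 166 groups of 5 or 7 tumors (a gene or list mean in KO or in WT tumors), the gap of the highest or lowest tumor to its neighbour, as a share of the group's range, was compared with Dixon's critical value, 0.71 for 5 tumors and 0.568 for 7. A tumor stood apart in 17 of them. Chance gives about 1 in 20 groups where genes are not picked by their values, but many genes here were picked for a large SD or for a gap between groups, so that rate does not apply to the 17.

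The 5 pancreatic enzyme genes, a set chosen after their values were seen, were high in WT tumor 05. The gap was 0.846 of the range for 2210010C04Rik (13.41, others 3.48 to 5.01), 0.988 for Cela2a (12.36, others 3.28 to 3.38), 0.946 for Cpa1, 0.972 for Pnliprp1 and 0.968 for Cela3b (11.97, others 3.64 to 3.90). A separate set of pancreatic enzyme genes, also chosen after values were seen and without 2210010C04Rik, averaged 12.17 in WT 05. Its mean was 3.69 to 3.88 in the other WT tumors, and the source of the signal was not tested. In KO tumors Cela3b was highest in KO 03, at 4.50 (gap 0.611).

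Bcl2l11 was low in WT 03, at 10.56 against 12.85 to 13.24 in the other WT tumors (gap 0.857). Baiap3 was high in KO 07, at 6.84 against 3.40 to 4.80 (gap 0.592). Gfer was low in WT 01, at 8.35 against 9.47 to 9.69 (gap 0.839). Nudt7 was low in KO 05, at 5.73 against 7.66 to 9.07 (gap 0.579), and Mpst high in KO 02, at 6.53 against 4.15 to 5.17 (gap 0.571). Arhgap11a was high in WT 04, at 12.20 against 11.59 to 11.65 (gap 0.912), and Gm550 low in KO 06, at 3.29 against 3.59 to 3.81 (gap 0.570).

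Pax7 was high in KO 01, at 8.38 against 2.98 to 3.80 in the other KO tumors (gap 0.848), and Gm13261 in KO 05, at 7.84 against 2.89 to 3.84 (gap 0.808). Fgf13 was low in KO 03, at 3.44 against 8.55 to 11.19 (gap 0.659). The mean of the T cell leukemia oncogene list was low in WT 04, at 4.85 against 5.37 to 5.55 (gap 0.740).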

How the results depend on the processing

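The count past the adjusted threshold was 0 in the reported fit and 1, Baiap3, with a replicate block and without KO tumor 07 (0 to 1 over all tumors left out in turn); it was 0 in the other alternatives. The titles do not say that replicate numbers pair the tumors. Deviations of same-numbered KO and WT tumors correlated at -0.50 to -0.02. Differently numbered tumors were not compared in this way, so these values cannot decide whether tumors are paired. The block gave 324 genes at unadjusted p under 0.05. That count, 473 as reported, was 148 with the B cell covariate, 148 without KO tumors 04 and 06, 174 without these and heterozygous tumors 01 and 03, 754 with the 3'/5' covariate, 287 with both covariates (chosen after seeing the data) and 229 to 975 with each tumor left out. Genes with a B cell slope numbered 1423 without the 4 tumors of highest B cell mean. Genes whose groups do not overlap numbered 36 without KO tumors 04 and 06, 37 in females and 18 to 69 with each tumor left out. Leaving tumors out can only keep or raise that count. The ratio difference ranged from -0.0315 to 0.48 with each tumor left out. The distance difference was -0.014 without KO tumors 03, 04 and 06, chosen after seeing the data.

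Of 860 values of 31 genes under alternatives, 6, all of Stk38l, had the other sign, and 2, of Baiap3, passed. Most of the 31 genes were picked for a small p or a gap in these same tumors, so kept signs are no support. Of 93 list medians, 18 moved by over 1 SD. In each case the cause was not tested. Signals near the lowest intensity bound what can be read, as for Tmeff1, Tfap2d and Foxn1.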
